A study of Mus musculus with 2 samples.

Results

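The acyl-CoA thioesterases are enzymes that split an acyl-CoA into a free fatty acid and coenzyme A. The 9 genes described here are Acot1, Acot2, Acot3, Acot4, Acot7, Acot8, Acot9, Acot12 and Acot13, taken as every probe set annotated with exactly 1 of these symbols. They gave 11 of the 20380 probe sets with a single symbol, and 9 of 12393 genes. A gene's value is that of its brightest probe set, judged by the mean log2 signal of both arrays, and the second probe sets of Acot4 and Acot12 are given beside it.

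Liver RNA came from male mice that are apolipoprotein E-deficient, have the background strain C57BL/6J/ OLA129 and carry a labelled age of 2 months, and it was measured on Affymetrix mouse arrays. The squalene pool (1 array) came from mice on chow whose 1% glycerol drink supplied squalene, from which the body makes cholesterol, in a daily dose of 1 g per kg over 10 weeks. The control pool (1 array) came from mice on chow and the 1% glycerol drink alone for 10 weeks, so both groups share the genotype, the diet and the glycerol. How many animals were pooled, at which hour livers were taken and whether the mice had fed is not stated in the labels. With 1 array per group there is no replicate and no test, and every ratio compares these 2 pools.

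Signals are MAS5 probe set intensities on a linear scale, and their median was 41.4 in the squalene pool and 39.9 in the control pool. The one measure of error is how far probe sets of 1 gene differ. On the log2 ratio it had an SD of 1.91, 0.71 and 0.24 in the tertiles of mean signal, from dimmest to brightest, with edges at mean signals of 17.4 and 97.1. That SD covers differences between probes on 1 pair of arrays, and says nothing of the spread between animals. Probe sets of 1 gene that fall in different tertiles were not compared, so the SD leaves their differences out. Each SD is pooled over its whole tertile, and the brightest runs up to a mean signal of 20342.65. Acot1 (mean signal 247.0), Acot3 (162.4) and Acot7 (133.3) lie toward the dim end of that tertile, where the SD was not taken separately. All 18 probe sets of the hybridization spike-ins read lower on the squalene array (median log2 ratio -0.26). The single probe set of Apoe read 130.6 in the squalene pool and 141.0 in the control pool, and since the labels do not say which part of the gene is deleted, it does not check the genotype. Of 14 hepatocyte markers 13 lay within 0.5 of a log2 ratio of 0 (median -0.02), and their lowest signal was 1950.1. Of the 6459 genes that reached the array median in both pools, 5542 lay within that band. The marker outside it was G6pc, at 1950.1 in the squalene pool and 3384.3 in the control pool (log2 ratio -0.80).

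Acyl-CoA synthetases and thioesterases work in opposite directions, the first activating fatty acids with coenzyme A and the second releasing them. Thioesterases thereby influence how much acyl-CoA is free for oxidation, lipid synthesis or signalling, and different members serve the cytosol, the mitochondria and the peroxisomes. Type I enzymes (Acot1 to Acot4 here) share an alpha/beta hydrolase fold, while type II enzymes (Acot7, Acot8, Acot9, Acot12 and Acot13) have a hotdog fold. In mouse liver several of the genes are known targets of PPAR alpha, the nuclear receptor that senses fatty acids and drives the fasting response.

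Of the thioesterase genes, Acot1 differed most, at 2.13-fold lower in the squalene pool, while Acot8, Acot4 and Acot12 read nearly alike in both pools. A log2 ratio below -0.5 was seen for 3 of the 9 genes, Acot1 (-1.09), Acot9 (-0.75) and Acot7 (-0.60), where 19.8% of all 12393 genes lay that low. A log2 ratio above 0.5 was seen for 1 gene, Acot2 (0.54), where 21.5% of all genes lay that high. None of the 9 passed the log2 limit of 1.5 stated in the submitters' design text, which 15.2% of all genes passed in either direction. The median log2 ratio was -0.43 over the 9 genes and 0.01 over all genes. Scaling to the spike-ins raises every ratio by 0.26 and so leaves the genes' distance from each other as it is. On that scale Acot1 (-0.83) was the 1 thioesterase gene below -0.5, where 14.3% of all genes lay. Acot2 (0.80) stayed above 0.5, where 33.3% of all genes lay. The median was -0.17 over the 9 genes and 0.27 over all genes.

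Much of that background came from dim genes, so the counts were also taken over genes that reached the array median in both pools. These were 7 of the 9 thioesterase genes, Acot2 and Acot9 being the exceptions, and 6459 of all genes. Of the 7, Acot1 and Acot7 lay below -0.5, against 6.35% of all such genes, and none lay above 0.5, against 7.85%. A ratio below 0 was read for 5 of the 7, where 48.8% of such genes lay below 0.

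**Figure D1:**
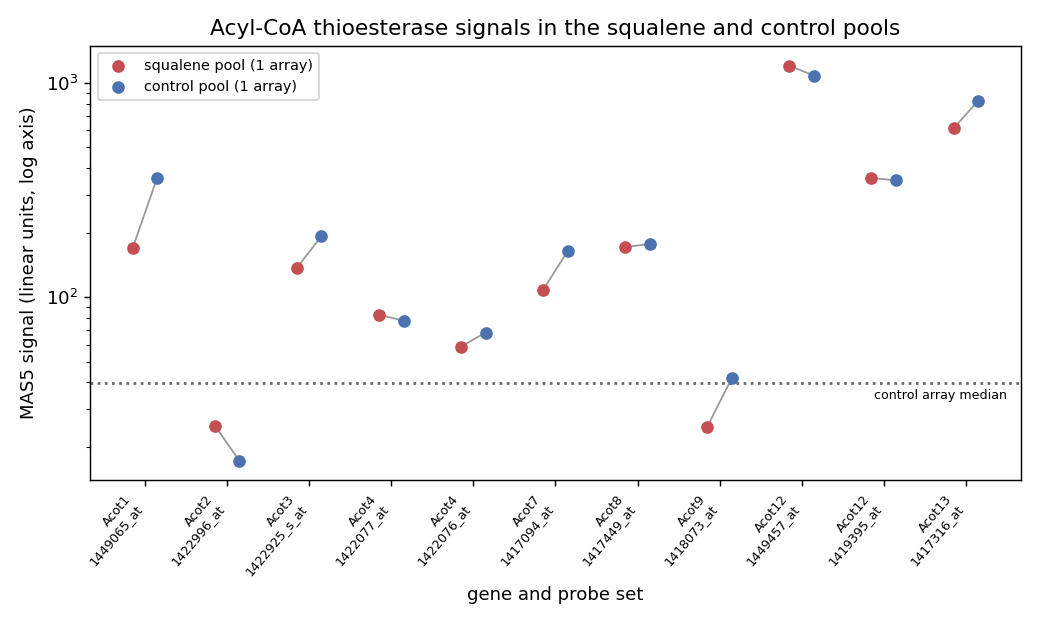
MAS5 signal (linear units on a log axis) of each of the 11 probe sets in the squalene pool (left point) and the control pool (right point), 1 array each, with the control array's median as a dotted line. Acot1 has the steepest line, at 169.1 in the squalene pool and 360.8 in the control pool, and both points of Acot2 lie under the median.

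The type I genes are neighbours. In the RefSeq gene table (GRCm38.p6) they lie on mouse chromosome 12 in the order Acot2, Acot1, Acot4, Acot3, Acot5 and Acot6, with 0 other protein-coding genes between any adjacent pair. Of the 4 described here, Acot1 (log2 ratio -1.09) lay furthest from 0, while the ratios of Acot2 (0.54) and Acot4 (0.09) were smaller than the SD of 0.71. The promoters of these 4 genes are printed for reference, and no link between them and the ratios was tested. Each is the 250 bases before the annotated start on the plus strand, from RefSeq's GRCm38.p6, at chr12:83987611-83987860 for Acot2, chr12:84009252-84009501 for Acot1, chr12:84038129-84038378 for Acot4 and chr12:84051894-84052143 for the first of 2 listed starts of Acot3. Capitals mark matches, on either strand, to the nuclear receptor half-site AGGTCA recognised by PPAR alpha with its partner RXR, to the CCAAT box, to the E-box CACGTG bound by clock proteins and to the TATA box TATAAA.
Acot2: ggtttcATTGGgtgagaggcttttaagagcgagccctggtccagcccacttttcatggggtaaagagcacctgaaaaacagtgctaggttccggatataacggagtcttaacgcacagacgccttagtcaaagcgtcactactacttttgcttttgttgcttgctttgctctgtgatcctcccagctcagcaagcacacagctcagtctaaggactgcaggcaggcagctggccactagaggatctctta
Acot1: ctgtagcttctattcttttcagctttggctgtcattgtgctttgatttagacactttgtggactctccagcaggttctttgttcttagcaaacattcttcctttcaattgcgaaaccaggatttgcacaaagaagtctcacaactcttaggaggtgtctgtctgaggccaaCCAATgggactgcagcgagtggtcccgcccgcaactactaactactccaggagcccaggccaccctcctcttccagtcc
Acot4: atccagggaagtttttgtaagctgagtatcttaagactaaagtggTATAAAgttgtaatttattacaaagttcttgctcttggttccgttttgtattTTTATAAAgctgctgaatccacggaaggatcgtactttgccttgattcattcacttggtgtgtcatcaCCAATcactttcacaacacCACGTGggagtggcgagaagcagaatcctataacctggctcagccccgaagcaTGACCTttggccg
Acot3: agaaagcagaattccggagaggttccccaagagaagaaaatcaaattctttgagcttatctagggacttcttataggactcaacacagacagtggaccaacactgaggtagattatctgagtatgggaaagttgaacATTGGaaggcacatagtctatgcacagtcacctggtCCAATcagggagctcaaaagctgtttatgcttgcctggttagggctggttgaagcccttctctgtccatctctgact

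All 4 windows hold the CCAAT box on 1 strand or the other, where the minus strand reads ATTGG, once in Acot2, Acot1 and Acot4 and at 2 places in Acot3. Acot4 alone among these 4 holds the half-site AGGTCA (as TGACCT) and CACGTG, and its 3 matches to TATAAA or TTTATA include an overlapping pair. The RefSeq table held promoters for 8 of the 9 genes. Over these 8, CCAAT was found in 6, against 33.8% of 32851 promoter windows of the same length, AGGTCA in 2 (Acot4 and Acot12), against 14.0%, TATAAA in 2 (Acot4 and Acot9), against 12.4%, and CACGTG in 1, against 6.02%. These matches describe letters in the windows and not bound sites.

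Acot1 encodes the cytosolic long-chain acyl-CoA thioesterase, which fasting and PPAR alpha activators are known to induce in liver. Its single probe set read 169.1 in the squalene pool, against 360.8 in the control pool. That is 2.13-fold lower (log2 ratio -1.09), or 4.64 times the SD between probe sets of 1 gene in its signal tertile. Of the 6459 genes that reached the median in both pools, 27 had a lower ratio, and of all 12393 genes 10.4% did. Genes whose squalene signal fell under the median are not among the 6459.

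Acot2, the mitochondrial matrix counterpart of Acot1, was read by a dim probe set. It gave 25.2 in the squalene pool, against 17.3 in the control pool, and both signals lay below the array median. The log2 ratio of 0.54 is smaller than the SD of 0.71 between probe sets in its tertile, and it lay within the band of 0.5 after quantile normalization, loess or a pseudocount of 16. A further probe set is annotated to both Acot1 and Acot2, and it read 138.0 in the squalene pool, against 217.5 in the control pool (log2 ratio -0.66). Its signal cannot be divided between these 2 paralogs, so it entered no gene's value.

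Acot3 and Acot4 encode peroxisomal thioesterases, Acot3 for long-chain acyl-CoAs and Acot4, in mouse, for succinyl-CoA and related dicarboxylic substrates. Acot3 read 136.9 in the squalene pool, against 192.6 in the control pool, a log2 ratio of -0.49. That is 2.09 times the SD of its signal tertile, just within the band of 0.5. The ratio was -0.53 after median centring, -0.55 after quantile normalization and -0.54 after loess. Each of these put 4 of the 9 genes below -0.5, beside 20.7%, 21.2% and 21.5% of all genes in that order. Its only probe set has the _s_at suffix that Affymetrix gives to sets matching more than 1 transcript. Acot4 read 82.7 in the squalene pool, against 77.8 in the control pool, on its brighter probe set. The other gave 58.8 in the squalene pool, against 68.4 in the control pool, so the 2 log2 ratios of Acot4 (0.09 and -0.22) have opposite signs and both are smaller than the SD of 0.71.

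**Figure D2:**
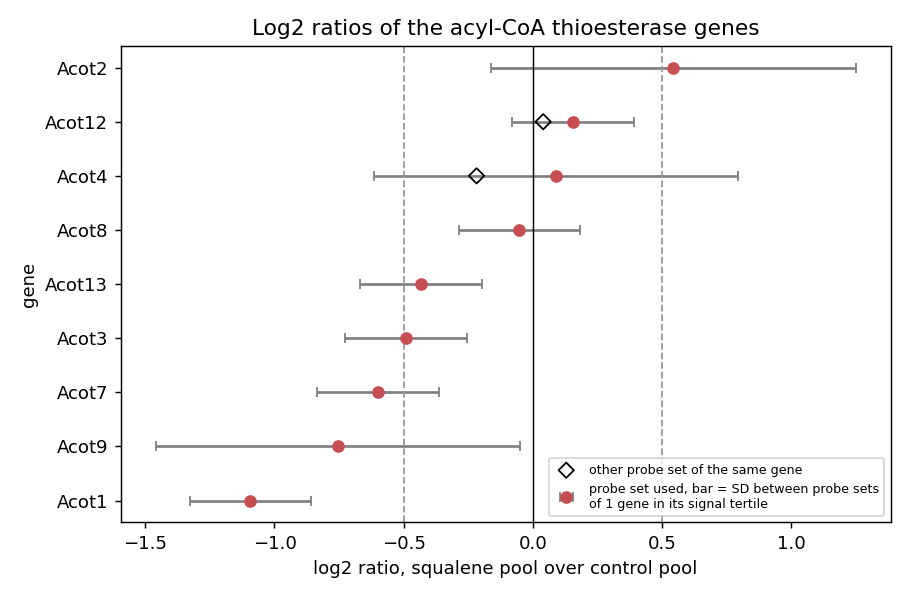
Log2 ratio (squalene pool over control pool) for the 9 genes (filled points), with bars of 1 SD between probe sets of 1 gene in the same signal tertile, and open diamonds for the second probe sets of Acot4 and Acot12. The bars of Acot1, Acot7, Acot3, Acot13 and Acot9 lie below 0, and those of Acot8, Acot4, Acot12 and Acot2 span it.

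Among the type II genes, 4 of 5 had a ratio below 0, where 48.6% of all genes lay below 0, and the median log2 ratio of the 5 was -0.43. Acot8 (-0.05), counted among the 4, was at 0.21 when scaled to the spike-ins. Over the 4 type I genes, 2 lay below 0 and the median was -0.20. Acot7, a cytosolic long-chain thioesterase best known from brain, read 108.2 in the squalene pool, against 164.1 in the control pool. It was 1.52-fold lower (log2 ratio -0.60), or 2.55 times the SD of its signal tertile. Acot13, also called Them2, is a mitochondria-associated thioesterase that binds the phosphatidylcholine transfer protein. It read 612.4 in the squalene pool, against 826.6 in the control pool, which is 1.35-fold lower (log2 ratio -0.43), or 1.84 times the SD.

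Acot9, a mitochondrial thioesterase, lay close to the array median. Its probe set read 24.9 in the squalene pool, against 42.0 in the control pool, for a log2 ratio of -0.75 beside an SD of 0.71. A probe set annotated to both Acot9 and Acot10 went the other way, with 37.4 in the squalene pool, against 28.5 in the control pool (log2 ratio 0.39). With signals below the median set to the median, the log2 ratio of Acot9 was -0.02.

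The remaining type II genes differed little between the pools. Acot8, a peroxisomal thioesterase of broad substrate range that also acts on bile acid CoA esters, read 171.0 in the squalene pool, against 177.3 in the control pool (log2 ratio -0.05). Acot12, a cytosolic enzyme that hydrolyses acetyl-CoA, read 1201.6 in the squalene pool, against 1080.2 in the control pool, on its brighter probe set. The other probe set gave 360.0 in the squalene pool and 350.3 in the control pool, and the log2 ratios of 0.15 and 0.04 are both within the SD of 0.24. By compartment, the peroxisomal genes Acot3, Acot4 and Acot8 were all within the band of 0.5 as the signals were deposited. Below it lay 2 of the 3 cytosolic genes (Acot1 and Acot7). The mitochondrial genes were split among lower (Acot9), higher (Acot2) and within (Acot13), but Acot9 and Acot2 were dim, with an SD of 0.71. Of all 12393 genes, 19.8% lay below -0.5, 21.5% above 0.5 and 7273 genes between. No difference between compartments was tested.

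**Figure D3:**
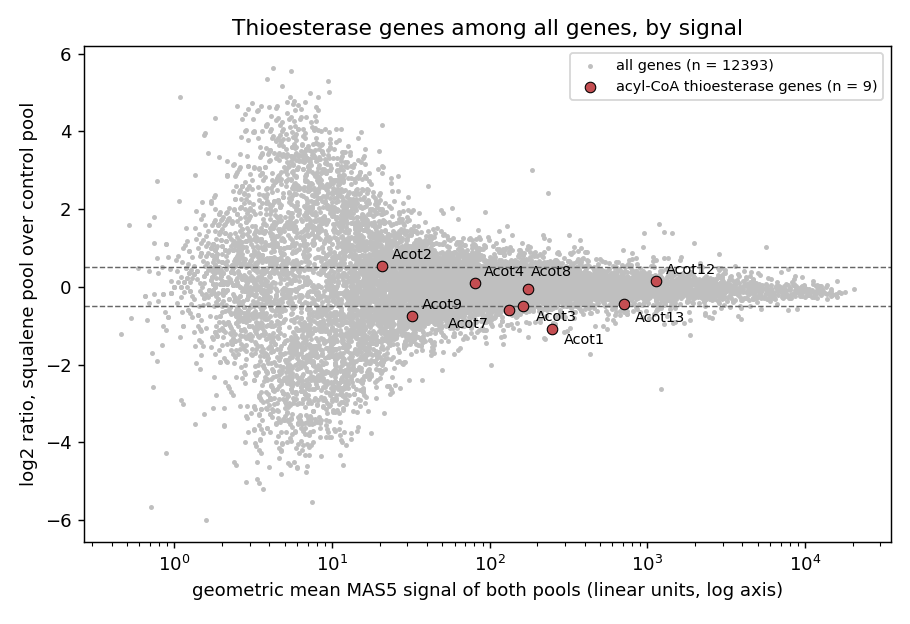
Log2 ratio (squalene pool over control pool) against the geometric mean MAS5 signal (log axis) for all 12393 genes in grey and the 9 thioesterase genes in red, with dashed lines at 0.5 and -0.5. The grey points fan out at low signal, where Acot2 and Acot9 lie, and Acot1 sits at the lower edge of the points around it.

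Acot5, Acot6 and Acot11 also have a single-symbol probe set but are outside the 9 genes, and all their signals lay below the array median. Acot5 read 3.6 in the squalene pool and 9.3 in the control pool, and Acot11 read 7.4 in the squalene pool and 5.0 in the control pool. The probe sets of Acot6 read 14.2 and 4.9 in the squalene pool, against 12.8 and 33.6 in the control pool, for log2 ratios of 0.15 and -2.78. The SD between probe sets was 1.91 in this tertile, so these values place none of the 3 genes.

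The genes around acyl-CoA were read to set the thioesterases beside their pathway. For all list counts from here on, 19.8% of all genes lay below -0.5 and 21.5% above 0.5. Over genes that reached the array median in both pools, these shares were 6.35% and 7.85%. Other hydrolases of acyl thioesters and CoA, Acot5, Acot6 and Acot11 included, had a median log2 ratio of -0.07 over 13 genes, with 1 above 0.5, 1 below -0.5 and 11 between. Over the 9 that reached the array median in both pools, 0 lay below -0.5 and 0 above 0.5. Among these 9, the lysosomal palmitoyl-protein thioesterase Ppt2 was at -0.44 and the acyl-protein thioesterase Lypla1 at 0.28. The peroxisomal CoA diphosphatase Nudt7 was at -0.27, though a dimmer Nudt7 probe set gave 0.68. The acyl-CoA synthetases, which work in the opposite direction, had a median of 0.08 over 16 genes, with 3 higher, 3 lower and 10 between. Over the 10 that reached the array median in both pools, 0 lay below -0.5 and 1 above 0.5. Acss2, which makes acetyl-CoA from acetate, stood at 0.51 and 0.39 on its probe sets, and Acsl4, which prefers arachidonate, at 0.46, 0.74 and 0.31.

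Carriers of acyl-CoA and fatty acids had a median log2 ratio of -0.20 over 8 genes, 1 of them below -0.5 and 7 between. Dbi, the acyl-CoA binding protein, gave -0.24, -0.16, 0.03 and 0.23 on its 4 probe sets, and the intestinal-type binding protein gene Fabp2 gave -0.44. The gene below the band was Acbd6, which was 4.01-fold lower on 1 probe set and had a log2 ratio of 0.25 on the other. Genes of coenzyme A synthesis were all 5 within the band, with a median of -0.04.

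Fatty acid oxidation consumes acyl-CoA in peroxisomes and mitochondria. Of 18 peroxisomal genes, 5 lay below -0.5, 0 above 0.5 and 13 between, with a median of -0.22, where 19.8% of all genes lay below -0.5. Crot, the peroxisomal carnitine octanoyltransferase, read 2894.2 in the squalene pool, against 4889.0 in the control pool (log2 ratio -0.76). Ehhadh, the peroxisomal bifunctional enzyme, was at -0.67 and Acaa1b, a peroxisomal thiolase, at -0.58, while its sister gene Acaa1a gave 0.33 and 0.07 on its probe sets. Over the 16 genes that reached the array median in both pools, 3 lay below -0.5, against 6.35% of all such genes, and the median was -0.18. Of 20 mitochondrial genes, 1 lay below -0.5 and 19 between, with a median of -0.09. That gene was Acads, the short-chain acyl-CoA dehydrogenase, at -0.61. The difference between these lists was not tested, since 1 array per group allows no test.

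The PPAR alpha target list, which shares genes with the oxidation lists, had a median log2 ratio of -0.25 over 22 genes. Below -0.5 lay 7 genes, above 0.5 lay 1, and 14 lay between, where 19.8% of all genes lay below -0.5 and 21.5% above 0.5. Over the 17 genes that reached the array median in both pools, 3 lay below -0.5, 0 above 0.5 and the median was -0.13. Of all such genes, 6.35% lay below -0.5 and 7.85% above 0.5. Plin2, the lipid droplet coat protein, read 1880.5 in the squalene pool, against 3233.0 in the control pool (log2 ratio -0.78), and Vnn1, a pantetheinase that recycles the vitamin moiety of coenzyme A, was at -0.48. Ppara itself read 944.3 in the squalene pool, against 734.5 in the control pool (log2 ratio 0.36). Hnf4a, another nuclear receptor that controls liver lipid genes, gave -0.13 on its brightest probe set and 0.32, 0.42 and 0.39 on the others. Ppargc1a, a coactivator of PPAR alpha, was at 1.56, with its other 4 probe sets between 0.23 and 1.32. Rxrb, of the RXR family that pairs with PPAR alpha, read 260.4 in the squalene pool, against 449.3 in the control pool (log2 ratio -0.79).

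**Figure D4:**
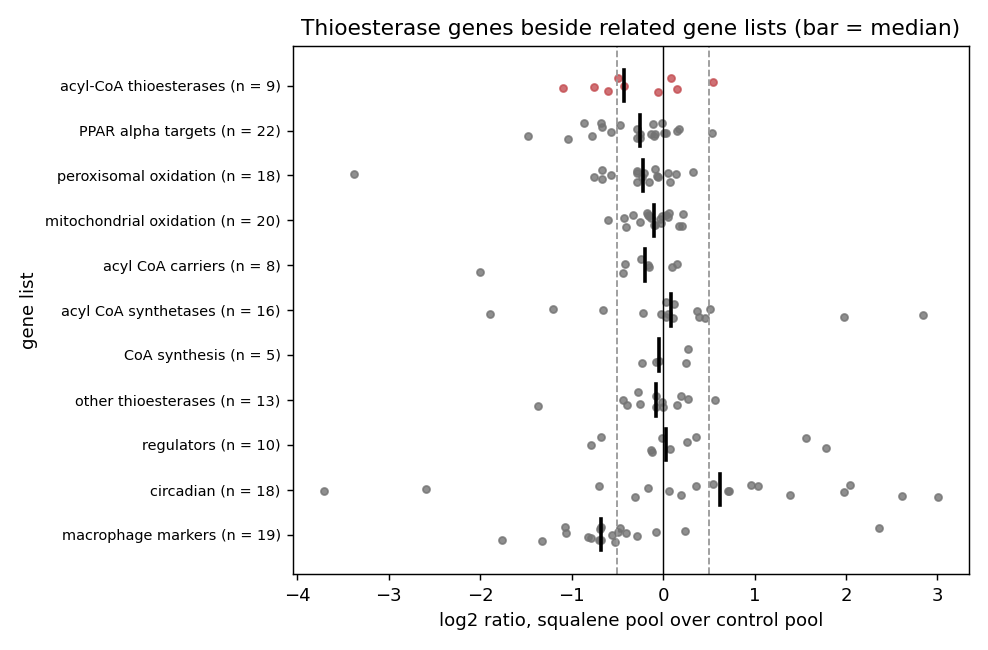
Log2 ratio (squalene pool over control pool) for the 9 thioesterase genes (red) and for genes of related lists (grey), 1 point per gene, with a black bar at each list's median and dashed lines at 0.5 and -0.5. The thioesterase median is -0.43, the PPAR alpha target median -0.25, the circadian median 0.63 and the macrophage marker median -0.68.

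Other gene groups differed on the same pair of arrays, where 19.8% of all genes lay below -0.5 and 21.5% above 0.5. Of 18 circadian genes, 10 lay above 0.5, 3 below -0.5 and 5 between, with a median log2 ratio of 0.63. The clock output gene Dbp read 1546.7 in the squalene pool, against 589.2 in the control pool. Of 19 macrophage markers, 12 lay below -0.5, 1 above 0.5 and 6 between, with a median of -0.68. Their summed signal was 5610.5 in the squalene pool, against 8637.2 in the control pool, and the lowest single value was 8.8, below the array median. Fewer cells of a type and less RNA per cell cannot be told apart in such pools. The part of the clock genes and of the macrophage markers in the thioesterase values was not tested.

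The stellate cell list had 6 of 11 genes below -0.5, 2 above 0.5 and a median of -0.70, where 19.8% of all genes lay below -0.5 and 21.5% above 0.5. Over probe sets with the plain _at suffix, the stellate median was -0.07, with 3 genes below -0.5 and 3 above 0.5, beside 20.6% and 23.5% of all genes. With the probe set of smallest ratio it was 0.017, with 2 below and 3 above, beside 17.6% and 19.0%. The summed signals of the stellate list were 3540.0 in the squalene pool and 3956.2 in the control pool. Most of each sum came from Dcn (2415.0 in the squalene pool, 2540.5 in the control pool) and Reln (531.3 and 525.0), so the sums do not describe the other markers. The endothelial list had 3 of 13 below -0.5, 2 above 0.5 and a median of -0.17, with sums of 1531.1 in the squalene pool and 1932.5 in the control pool. Lymphocyte markers summed to 204.6 over 13 genes in the squalene pool, against 246.0 in the control pool, with 5 below -0.5, 5 above 0.5 and a median of 0.25 that was -0.65 when all probe sets of a gene were averaged. Adipose markers summed to 257.0 over 6 genes in the squalene pool, against 240.0 in the control pool, with 1 below -0.5, 3 above 0.5 and a median of 1.07 that was 0.12 over the genes that reached the array median in both pools. The lowest value on these 4 lists was 1.0. The lowest signals of all probe sets were 0.1 in the squalene pool and 0.2 in the control pool. A signal above 0 thus does not show that a marker was present, and no detection calls were at hand.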

How the data were processed

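The authors deposited MAS5 signals, which are linear intensities with 1 value per probe set and 1 Affymetrix array per pool, per the submitters' processing notes. No source used here gives the software version, scaling target or detection calls. Both arrays had a 2%-trimmed mean of 200.1, seen in the values. Groups were taken from the sample titles. Of 22690 probe sets, 64 were array controls, 20380 had 1 gene symbol in the platform annotation, 691 several and 1555 none, and 20351 of those with 1 symbol matched the RefSeq gene table by Entrez number.

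The log2 ratio of the squalene over the control signal was taken without a pseudocount. Genes were counted beyond a log2 ratio of 0.5, and past 1.5, the submitters' limit. The 9 genes and the 15 lists were chosen with earlier results of these data known. Named were all 9 genes and, from each list of related genes, at most 4 with the largest ratio among those at or above the median in both pools, with Ppara, Hnf4a and Apoe. Not every gene so picked is named, and Dbp is the only one given from the circadian list. Dcn and Reln are named only for their part in the stellate sums, and G6pc as the 1 hepatocyte marker outside the band. Promoters and motifs were read from the RefSeq promoter table. No test between groups was made. The alternatives were other probe set choices, scalings, a pseudocount of 16, filters on low signals and bands of 0.3 and 1.0. Counting steps were tested on simulated data. Python 3.11.15 with numpy 2.4.6, pandas 2.3.3, scipy 1.17.1 and matplotlib 3.10.9 was used, and loess was run with limma 3.58.1 in R 4.3.3.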

Additional observations from a re-analysis of the deposited data

How the results depend on the processing

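Acot1 had a log2 ratio between -1.14 and -0.83 under 11 alternative settings, and Acot7 (-0.65 to -0.34), Acot13 (-0.47 to -0.17) and Acot3 (-0.55 to -0.23, 10 settings) were also below 0. Each of these genes has 1 single-symbol probe set and reached the array median in both pools. The probe set choices, flooring and filters therefore could not move their ratios, and only the scalings and the pseudocount could. Acot9 ran from -0.81 to -0.02. Scaling to the spike-ins raises every ratio by 0.26, for all genes alike: 1 thioesterase gene then lay below -0.5 beside 14.3% of all genes, their median was -0.17 beside 0.27 over all genes, Acot8 was at 0.21, and 33.3% of all genes lay above 0.5. List medians under that scaling were 0.18 for other thioesterases, 0.34 for synthetases, 0.055 for carriers, 0.16 for mitochondrial and 0.039 for peroxisomal oxidation, 0.0042 for PPAR alpha targets, 0.29 for regulators, 0.22 for coenzyme A synthesis and 0.89 for circadian genes. Raising signals below the array median to it gave a thioesterase median of -0.052. The count above 0.5 was 0 after quantile normalization, loess, a pseudocount of 16, flooring and both filters on low signals. A band of 0.3 gave 5 genes below and 1 above, beside 26.7% and 29.8% of all genes, and a band of 1.0 gave 1 below and 0 above, beside 11.1% and 11.9%. Median centring, quantile normalization and loess each gave 4 below -0.5, with Acot3 added, beside 20.7%, 21.2% and 21.5% of all genes. Of all genes, the share below -0.5 was 11.7% with the pseudocount, 4.20% floored, 10.4% with the median reached in at least 1 pool and 6.35% in both, and the share above 0.5 was 12.5%, 4.91%, 11.3% and 7.85%. The regulators' median was 0.31 over plain-suffix probe sets and the circadian one 0.28 with the probe set of smallest ratio. With that probe set the stellate marker median was 0.017, opposite in sign, and the lymphocyte one -0.057. The lymphocyte median was also -0.057 over plain-suffix probe sets, -0.65 with the mean of probe sets, and -2.44 where the median is reached in at least 1 pool. The adipose median was 0.29 with the pseudocount, 0.051 floored and 0.12 with either filter. The causes of these shifts were not tested. Acot3 has no plain-suffix probe set, and the filters remove Acot2, and Acot9 where both pools must reach the median. No paired analysis was possible because each group has 1 array. Their number, and low signal for Acot2 and Acot9, limits the precision.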
